A study of Homo sapiens with 18 samples.

Results

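The results below concern interferon alpha treatment of the K562 line called KRAB-D9, in cells that received no doxycycline. The members were chosen by label: the 2 libraries of KRAB-D9 cells given interferon alpha alone (replicates 1 and 2), set against the 2 libraries of untreated KRAB-D9 cells (replicates 1 and 2), which makes 4 of the 18 libraries of the series. Every gene of the deposited count table was taken, and 22143 of its 41285 genes had enough counts to be tested. K562 is an established line of erythroid-like cells from a chronic myeloid leukaemia. The treated cells had recombinant human interferon alpha at 1000 U/mL for 24 hours, which the submitters gave to induce the gene SAMD9, and their reference was the same line without it. Both groups carry a doxycycline-inducible dCas9-KRAB, a nuclease-dead Cas9 fused to a repressor domain, which was left uninduced in all 4 libraries. Whether the line is 1 clone, and what guide it carries, is not given in the sources used here. Another pair of groups is used for comparison, namely interferon alpha-treated and untreated parental K562 cells, with 2 libraries each. The titles of the 4 KRAB-D9 libraries carry the label WT, and those of the parental libraries the label iso. The labels do not say that replicates came from separate cultures, so the spread behind the p-values may be technical. The main fit shares its spread over all 18 libraries. The treated KRAB-D9 pair varied more than any other pair (below), so main-fit p-values may be too small for this comparison.

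Interferon alpha binds the receptor pair IFNAR1 and IFNAR2, and the kinases JAK1 and TYK2 then phosphorylate STAT proteins. STAT2 acts with IRF9 in a factor that binds a promoter element called the interferon-stimulated response element (ISRE). The genes it induces include RNA sensors, blockers of viral entry, translation and replication, the ubiquitin-like protein ISG15, the class I antigen presentation machinery and inhibitors of the pathway itself.

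The ISRE core, which is GAAA, then NN for any pair of bases, then GAAA (TTTC, NN, TTTC on the other strand), was searched in RefSeq promoters of GRCh38.p14, from 250 bases before to 50 bases after each gene's start. It was present in 26 of the 55 promoters (47.3%) of genes that were called higher by more than 8-fold and in 21 of the 71 promoters (29.6%) of genes called higher by 2- to 8-fold, with genes that had no untreated count placed by the lower bound of their fold. It was present in 22 of the 548 promoters (4.01%) of genes called higher by less, in 17 of 400 (4.25%) for genes called lower, in 281 of 11294 (2.49%) for genes not called, and in 3.57% of all 35116 promoters in the table. A match is a description of letters, not a bound site. The 8 stretches below are shown because their genes stand for the parts of the response described later: ISG15 and its pathway, antiviral effectors from 3 families (IFIT1, IFITM3, IFI6 and IFI27), SAMD9, and class I presentation (TAP1 and B2M). Each is printed 5′ to 3′ on the gene's own strand, with 20 bases on either side, and capitals mark the cores in either orientation.
ISG15, chr1:1013364-1013419, + strand: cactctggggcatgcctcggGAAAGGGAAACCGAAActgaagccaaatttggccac
IFIT1, chr10:89392487-89392549, + strand: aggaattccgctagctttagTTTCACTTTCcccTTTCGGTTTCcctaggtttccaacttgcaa
IFITM3, chr11:320866-320932, − strand: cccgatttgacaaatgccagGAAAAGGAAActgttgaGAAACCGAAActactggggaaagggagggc
IFI6, chr1:27672256-27672368, − strand: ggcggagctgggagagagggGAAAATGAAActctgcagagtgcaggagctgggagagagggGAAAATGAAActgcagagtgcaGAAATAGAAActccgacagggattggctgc
IFI27, chr14:94110608-94110670, + strand: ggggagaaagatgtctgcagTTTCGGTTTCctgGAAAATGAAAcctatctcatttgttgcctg
SAMD9, chr7:93118086-93118135, − strand: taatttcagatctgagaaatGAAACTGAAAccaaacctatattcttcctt
TAP1, chr6:32853803-32853858, − strand: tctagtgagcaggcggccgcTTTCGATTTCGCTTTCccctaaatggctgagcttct
B2M, chr15:44711353-44711408, + strand: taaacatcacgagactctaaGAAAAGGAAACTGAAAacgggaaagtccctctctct
In ISG15, TAP1 and B2M the 2 cores overlap. The IFI6 stretch carries 3 separate cores, and the single core of SAMD9 starts 136 bases before the gene's start. The windows of SAMD9L, OAS1, HERC6, XAF1, PSMB9 and IRF9, all genes that rose, hold no such letters.

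The interferon-treated libraries held 32694200 and 59653278 counts and the untreated ones 55546215 and 45964285, where all 18 libraries ranged between 32694200 and 63037568. Levels are given as CPM, the usual per-million scale of counts, after adjustment of library totals by trimmed mean of M values (TMM). The interferon-treated pair of KRAB-D9 differed between its replicates more than any of the other 8 pairs: the variance over counting noise was 10.3, against 4.27 to 6.12, and the log2 difference followed the GC content of the genes with a Spearman coefficient of −0.583, against −0.389 to 0.300 in the other pairs. Without interferon replicate 1 the calls were 806 higher and 426 lower, and without interferon replicate 2 they were 1076 higher and 1126 lower, so counts of small changes depend on this pair. Erythroid markers of K562 were present in all 4 libraries: GATA1 was at 237 and 247 CPM with interferon and 219 and 230.1 CPM without. The defining myeloid gene MPO had no count in any of the 4. The myeloid list as a whole summed to 82.3 and 80.1 CPM with interferon and 74.0 and 79.2 CPM without. Lymphoid markers summed to 6.96 and 6.64 CPM with interferon and 10.1 and 9.62 CPM without. Fibroblast and epithelial markers summed to 867 and 896 CPM with interferon and 889 and 907 CPM without.

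After 24 hours of interferon alpha, 882 genes (3.98% of those tested) were called higher and 535 (2.42%) lower at an adjusted p under 0.05 in edgeR's quasi-likelihood test over all 18 libraries. These shares are the background for the counts of list members below. A fit of the 4 compared libraries alone, with 2 residual degrees of freedom in place of 9, called 351 of 18121 genes higher (1.94%) and 114 lower (0.629%), and 348 and 113 were called the same way in both fits. Correction of each library for GC content, a setting chosen after the data were seen, gave 1048 higher (4.73%) and 760 lower (3.43%). The rise was much wider in size than the fall. Of the genes called higher, 188 (0.849% of those tested) rose more than 2-fold, 84 passed a log2 fold change of 3 and 39 passed 5 (98 and 57 by the fitted values, before the 26 genes with no untreated count are set to the lower bound of their fold), whereas 35 genes were called lower by more than 2-fold, and 6 of those 35 were called in both fits against 143 of the 188. The median log2 fold change was 0.36 among the genes called higher, −0.27 among those called lower and 0.00 over all genes. Of the 188, 153 are protein-coding, 27 are long noncoding RNAs and 6 are pseudogenes, and 105 averaged under 1 CPM in untreated cells. Together these 188 genes took 1.75% and 1.83% of all counts in the interferon-treated libraries, against 0.315% and 0.314% in the untreated libraries.

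**Figure D1:**
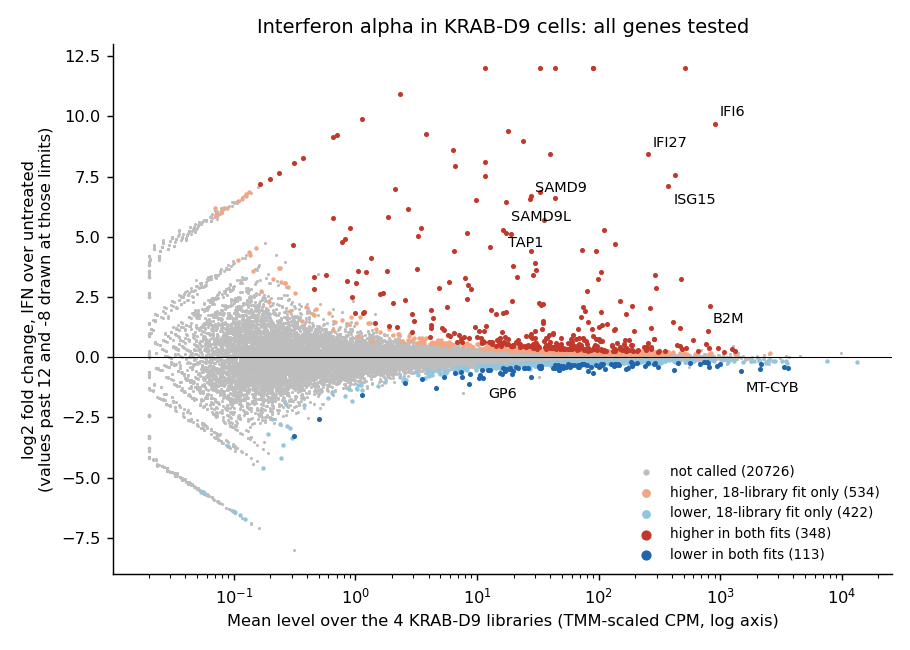
Log2 fold change of every gene tested (vertical axis, interferon alpha over untreated KRAB-D9) against its mean level over the 4 libraries (horizontal log axis, TMM-scaled CPM), with 1 point per gene coloured by its call; genes with no untreated count stand at fitted values, which are not bounds. Genes called higher reach far above 0 at all levels, while the genes called lower at levels above about 1 CPM stay close to the zero line.

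SAMD9 and SAMD9L lie side by side on chromosome 7 (SAMD9 at positions 93099513 to 93118023 and SAMD9L at 93130056 to 93148385 in the deposited table, build GRCh38.p13) and encode related cytosolic proteins that restrict poxviruses. SAMD9 was at 55.01 and 53.5 CPM with interferon and 0.750 and 0.364 CPM without. SAMD9L was at 37.2 and 31.8 CPM with interferon and 0.487 and 0.273 CPM without. Both genes were low in both untreated libraries and high in both treated ones, with no overlap. The log2 fold changes were 6.55 ± 0.12 (approximate SE) for SAMD9 and 6.46 ± 0.21 for SAMD9L. That of SAMD9 was 7.21 without untreated replicate 1 and 6.17 without untreated replicate 2. Among the 21 other genes tested from the surrounding stretch of 7q21, 3 rose and none fell (3.98% and 2.42% of all genes), and 1 of these 3 was called in the fit of the 4 compared libraries: HEPACAM2, a cell adhesion gene, at 23.1 and 20.7 CPM with interferon and 11.8 and 12.4 CPM without. The neighbour CDK6, a cell cycle kinase, was at 244 and 247 CPM with interferon and 248 and 255 CPM without, and was not called. The median log2 fold change over the 21 was 0.09 (0.11 by the fitted values), and without interferon replicate 2 the count called higher was 7.

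Interferon alpha switched on 10 genes that had no count in either untreated library and at least 1 CPM in both treated ones, so their folds are lower bounds, taken against a floor of 3 counts per untreated library. MX1, a dynamin-like GTPase that traps viral nucleocapsids, was at 983 and 1074 CPM with interferon, at least 16531-fold higher than without. OAS1 and OAS2 make 2′-5′ oligoadenylates, a signal for RNA decay. OAS1 was at 179.8 and 179.5 CPM with interferon (at least 2887-fold higher) and OAS2 at 178 and 183 CPM (at least 2898-fold higher). IFIT1, which binds viral RNA lacking a self-like cap, was at 88.6 and 86.0 CPM with interferon, at least 1403-fold higher. IFI44L was at 71.6 and 61.1 CPM (at least 1066-fold higher) and its relative IFI44 at 5.15 and 4.09 CPM (at least 74.3-fold higher), both with interferon. The X-linked pseudogene of a retroviral envelope, ERVWE2, was among the 10, at 21.6 and 24.6 CPM with interferon, at least 372-fold higher. The other 3 were SIGLEC1, a sialic acid-binding lectin of macrophages (1.32 and 1.32 CPM), the noncoding LINC02574 (1.80 and 1.04 CPM) and USP41 (2.42 and 2.09 CPM), all with interferon. USP41 is a near copy of USP18 and its counts may belong to that gene. OASL, a catalytically inactive OAS relative, had 1 count in the untreated libraries together, and its level of 7.05 and 8.29 CPM with interferon gave a count ratio of 765 with a 95% counting interval of 137 to 30243.

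**Figure D2:**
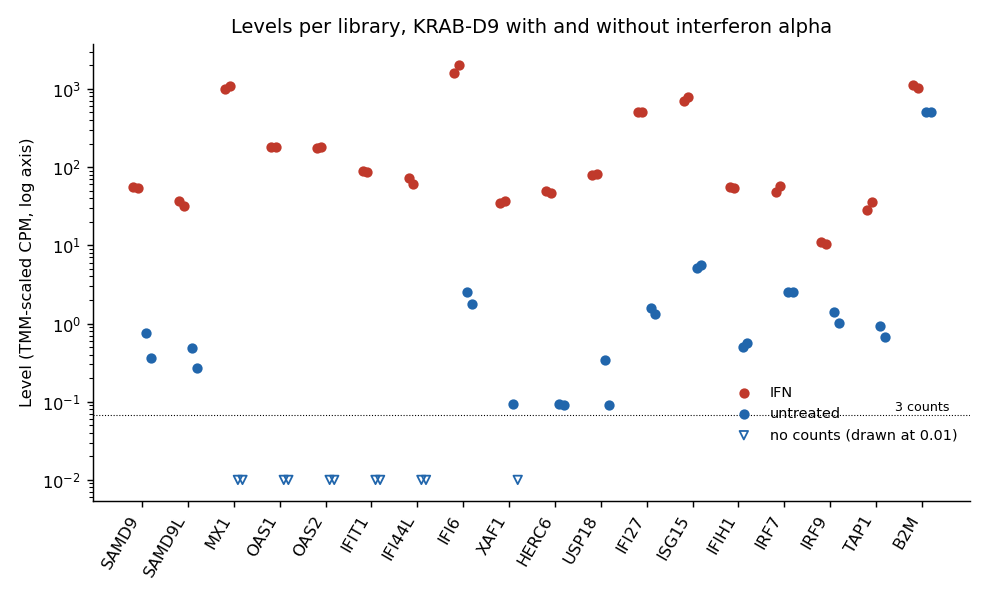
Level of 18 named genes in each of the 4 libraries (vertical log axis, TMM-scaled CPM; red circles for interferon alpha, blue circles for untreated, open triangles for no counts, drawn at 0.01, and the dotted line for 3 counts). In every gene shown both treated libraries lie above both untreated ones, from about 2-fold in B2M to genes with no count before treatment.

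Of 13 genes tested for the receptor, its kinases and the STAT and IRF factors, 6 rose, none fell, and 5 of the 6 were called in the fit of the 4 compared libraries. STAT2 and its partner IRF9 both rose. STAT2 was at 116 and 121 CPM with interferon and 43.9 and 43.4 CPM without (1.44 ± 0.05). IRF9 was at 10.9 and 10.3 CPM with interferon and 1.39 and 1.00 CPM without (3.14 ± 0.20). The replicates of each group lay close together in both genes and the groups did not overlap. IRF7, the factor that amplifies interferon gene transcription, rose by a log2 fold change of 4.40 ± 0.13 to 48.4 and 57.3 CPM with interferon, against 2.51 and 2.50 CPM without, and IRF1, a broadly acting activator, by 1.07 ± 0.13. IRF2, a competitor of IRF1, rose by 0.40 ± 0.11 in the fit of all libraries and was not called in the fit of 4. The receptor chains and kinases were not called. IFNAR1 was at 88.0 and 80.2 CPM with interferon and 79.5 and 76.3 CPM without, JAK1 at 94.98 and 95.4 CPM with and 97.3 and 96.9 CPM without, and TYK2 at 112 and 123 CPM with and 118 and 121 CPM without. IRF3, the factor that sensors activate by phosphorylation, was at 74.2 and 78.7 CPM with interferon and 78.9 and 80.3 CPM without, also not called.

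Of 10 feedback inhibitors, 1 rose: USP18, which removes ISG15 from proteins and also blocks the receptor through IFNAR2. It was at 78.8 and 80.5 CPM with interferon and 0.337 and 0.0910 CPM without, with a log2 fold change of 8.45 ± 0.40 (9.74 without untreated replicate 1 and 7.88 without untreated replicate 2). The suppressors of cytokine signalling were not called at this time point. SOCS1 was at 9.60 and 15.5 CPM with interferon and 11.3 and 10.7 CPM without, with overlapping groups, and SOCS3 at 8.79 and 9.68 CPM with and 8.45 and 8.21 CPM without.

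Most antiviral effectors rose: 45 of 52 members tested were called higher in both fits, none was called lower, and the median log2 fold change was 3.23. The small membrane proteins IFI6 and IFI27 showed it at high levels. IFI6 was at 1577 and 2036 CPM with interferon and 2.49 and 1.80 CPM without (9.70 ± 0.23). IFI27 was at 503 and 511 CPM with interferon and 1.59 and 1.32 CPM without (8.43 ± 0.08). Both had a measurable basal level, so these fold changes are not bounds. XAF1, a pro-apoptotic antagonist of inhibitor of apoptosis proteins, was at 34.8 and 36.6 CPM with interferon and 0.0937 and 0 CPM without (9.38 ± 0.28). Its 5 untreated counts all came from replicate 1, and the log2 fold change was 8.54 without untreated replicate 2. In the OAS and IFIT families the silent members above had relatives with a basal level. OAS3 was at 804 and 891 CPM with interferon and 4.01 and 5.03 CPM without (7.56 ± 0.08). IFIT3 was at 89.2 and 85.4 CPM with interferon and 0.993 and 0.796 CPM without (6.59 ± 0.13), IFIT5 rose by a log2 fold change of 7.52 ± 0.31 and IFIT2 by 3.53 ± 0.53. RSAD2, the viperin that makes a chain-terminating nucleotide, was at 215 and 214 CPM with interferon and 5.998 and 5.07 CPM without (5.27 ± 0.12).

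Effectors already present in untreated cells rose by smaller factors. IFITM proteins block viral entry at membranes. IFITM1 was at 1397 and 1288 CPM with interferon and 312 and 308 CPM without, IFITM3 at 527 and 527 CPM with and 48.7 and 51.6 CPM without, and IFITM2 at 127 and 124 CPM with and 80.2 and 78.9 CPM without. Their log2 fold changes were 2.11 ± 0.04 for IFITM1, 3.39 ± 0.05 for IFITM3 and 0.66 ± 0.05 for IFITM2, and in each gene the groups did not overlap. EIF2AK2, the double-stranded RNA-activated kinase PKR that halts translation, was at 543 and 508 CPM with interferon and 70.6 and 72.8 CPM without (2.87 ± 0.05). SAMHD1, which hydrolyses deoxynucleotides, was at 139 and 139 CPM with interferon and 20.4 and 21.6 CPM without (2.73 ± 0.06). BST2, the tetherin that holds virions on the cell surface, rose by 1.48 ± 0.04 and the scramblase PLSCR1 by 2.31 ± 0.05. Among the 7 members not called were NT5C3A, TMEM140 and the guanylate-binding proteins GBP1, GBP2, GBP3 and GBP5. GBP2 was at 2.22 and 1.84 CPM with interferon and 1.91 and 1.48 CPM without, groups that overlapped, and GBP5 was at 1.32 and 1.58 CPM with interferon and 1.61 and 1.80 CPM without, with both treated values below the untreated ones. GBP4 was the guanylate-binding protein called, at 2.93 and 2.46 CPM with interferon and 1.05 and 1.16 CPM without (1.28 ± 0.40, adjusted p = 0.046).

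All 8 genes listed for ISG15 conjugation rose in both fits, with a median log2 fold change of 4.91 (5.88 by the fitted values, before USP41 is set to its lower bound). ISG15 is attached to proteins by the E1 enzyme UBA7, the E2 UBE2L6 and E3 ligases such as HERC5, and USP18 takes it off. ISG15 was at 710.4 and 781 CPM with interferon and 5.17 and 5.59 CPM without (7.12 ± 0.06). UBA7 was at 16.3 and 15.4 CPM with interferon and 2.74 and 1.57 CPM without (2.85 ± 0.16), and UBE2L6 at 145 and 134 CPM with and 6.19 and 6.78 CPM without (4.43 ± 0.08). All members from substrate to E2 were thus higher in each treated library than in either untreated one. HERC6, also in the list, was at 49.1 and 47.1 CPM with interferon and 0.0937 and 0.0910 CPM without (8.99 ± 0.21). HERC5, the main ISG15 ligase of human cells, stayed near the detection limit at 0.709 and 0.474 CPM with interferon and 0 and 0.0455 CPM without. Its adjusted p was 0.036, and its 2 untreated counts gave a count ratio of 27.1 (95% counting interval 7.12 to 230). TRIM25, a ligase of the RIG-I pathway as well, rose by 1.80 ± 0.05.

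The RNA helicases that sense foreign RNA rose, and the adaptors MAVS and STING1 were not called. Of 19 genes tested, 11 rose in both fits, none fell, and the median log2 fold change was 1.20. The RNA helicase sensors rose: IFIH1 (MDA5) was at 56.4 and 54.4 CPM with interferon and 0.506 and 0.568 CPM without (6.69 ± 0.17), and DHX58 (LGP2) at 12.6 and 12.02 CPM with and 0.637 and 0.5002 CPM without (4.41 ± 0.19). DDX58, the gene of RIG-I, had 3 counts in the untreated libraries together and was at 3.99 and 4.46 CPM with interferon, a count ratio of 139 (95% counting interval 47.3 to 679). The related helicases DDX60 and DDX60L rose by 8.09 ± 0.36 and 5.16 ± 0.16. IFI16, a DNA-binding sensor, rose by 3.32 ± 0.11, ADAR, which edits double-stranded RNA, by 1.20 ± 0.04, and the adaptor MYD88 by 1.19 ± 0.06. MAVS, which passes on the signal of the RNA helicases, was at 115 and 116 CPM with interferon and 125 and 119 CPM without, STING1, the adaptor of cGAS, at 42.2 and 40.9 CPM with and 42.5 and 42.0 CPM without, and TBK1, the kinase that both adaptors recruit, at 67.8 and 62.9 CPM with and 60.6 and 62.9 CPM without. The DNA sensor CGAS was at 0 and 0.228 CPM with interferon and 0.0937 and 0.0910 CPM without, at the detection limit, and AIM2 was likewise below 0.2 CPM in all 4 libraries.

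Class I antigen presentation rose in 13 of 17 genes tested, 11 of them in both fits, with none lower and a median log2 fold change of 0.82. K562 cells are known for very low class I molecules on their surface. TAP1, a subunit of the peptide pump into the endoplasmic reticulum, was at 28.2 and 35.7 CPM with interferon and 0.937 and 0.682 CPM without (5.29 ± 0.17), while its partner TAP2 was at 51.2 and 50.9 CPM with and 19.3 and 16.9 CPM without (1.49 ± 0.08). The invariant light chain B2M was at 1114 and 1034 CPM with interferon and 509.5 and 503 CPM without (1.08 ± 0.04). HLA-C was at 14.3 and 17.7 CPM with interferon and 0.281 and 0.659 CPM without (5.14 ± 0.23). HLA-B was at 5.80 and 4.88 CPM with interferon and 0.0375 and 0.114 CPM without (6.16 ± 0.60), and HLA-E at 49.1 and 54.1 CPM with and 26.1 and 28.5 CPM without (0.92 ± 0.07). HLA-F and NLRC5, the activator of class I genes, were not called. Reads of the HLA genes can map to more than 1 of them or differ from the reference, so these levels are uncertain. The loading chaperone TAPBP rose by 0.74 ± 0.05 and the peptide-trimming enzymes ERAP1 and ERAP2 by 0.76 ± 0.06 and 1.50 ± 0.23.

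The inducible proteasome parts rose and few of the standard ones were called. Of the 6 immunoproteasome and activator genes 5 rose in both fits, with a median log2 fold change of 1.15. Of the 31 constitutive subunits 2 rose and 1 fell (against 3.98% and 2.42% of all genes), with 1 higher in both fits and a median of 0.02. The catalytic subunit PSMB9 was at 6.06 and 5.83 CPM with interferon and 0.375 and 0.568 CPM without (3.67 ± 0.30), PSMB8 at 2.58 and 2.46 CPM with and 0.112 and 0.182 CPM without (4.10 ± 0.38), and PSMB10 at 12.4 and 15.7 CPM with and 7.08 and 6.39 CPM without (1.07 ± 0.14). The subunits these replace gave no call: PSMB6 was at 86.2 and 88.1 CPM with interferon and 93.0 and 93.4 CPM without, PSMB5 at 162 and 171 CPM with and 168 and 159.9 CPM without, and PSMB7 at 243 and 229 CPM with and 236 and 231 CPM without. The activator genes PSME1 and PSME2 rose by 1.19 ± 0.05 and 1.12 ± 0.05, and the assembly chaperone POMP was at 178 and 163 CPM with interferon and 171 and 168 CPM without, not called.

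ADP-ribosylating enzymes responded in part. Of 17 PARP family genes tested (with the partner DTX3L) 7 rose and none fell, 6 of them in both fits, with a median of 0.18. PARP14 was at 193 and 189 CPM with interferon and 16.3 and 16.7 CPM without (3.53 ± 0.06). PARP9 was at 183 and 179 CPM with interferon and 7.20 and 10.1 CPM without (4.40 ± 0.08), and DTX3L, the ubiquitin ligase that shares its promoter region and forms a complex with it, at 181 and 174 CPM with and 19.8 and 17.8 CPM without (3.24 ± 0.06). PARP10 rose by 5.12 ± 0.15, PARP12 by 2.08 ± 0.06 and ZC3HAV1, the zinc-finger antiviral protein, by 0.49 ± 0.04. PARP1, the enzyme of DNA repair, was at 671 and 724 CPM with interferon and 709.6 and 716 CPM without and was not called. Of 10 TRIM ligases 8 rose in both fits, with a median of 1.45. TRIM22 was at 24.3 and 25.2 CPM with interferon and 0.937 and 1.14 CPM without (4.58 ± 0.19), TRIM21, the cytosolic antibody receptor, rose by 2.21 ± 0.09, TRIM14 by 2.12 ± 0.05 and the retroviral capsid sensor TRIM5 by 1.11 ± 0.08. Of 8 genes of PML bodies and the SP100 family 4 rose in both fits, with a median of 0.62: SP110 (57.5 and 54.0 CPM with interferon, 3.54 and 3.98 CPM without), SP100 by 1.93 ± 0.06, PML by 1.25 ± 0.06 and SP140L by 0.60 ± 0.09. The body residents DAXX and ATRX were not called. Of 6 cytidine deaminases 4 rose, 3 of them in both fits, with a median of 0.32, led by APOBEC3G at 13.8 and 13.4 CPM with interferon and 5.89 and 5.41 CPM without (1.27 ± 0.12) and by APOBEC3F (1.13 ± 0.18).

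**Figure D3:**
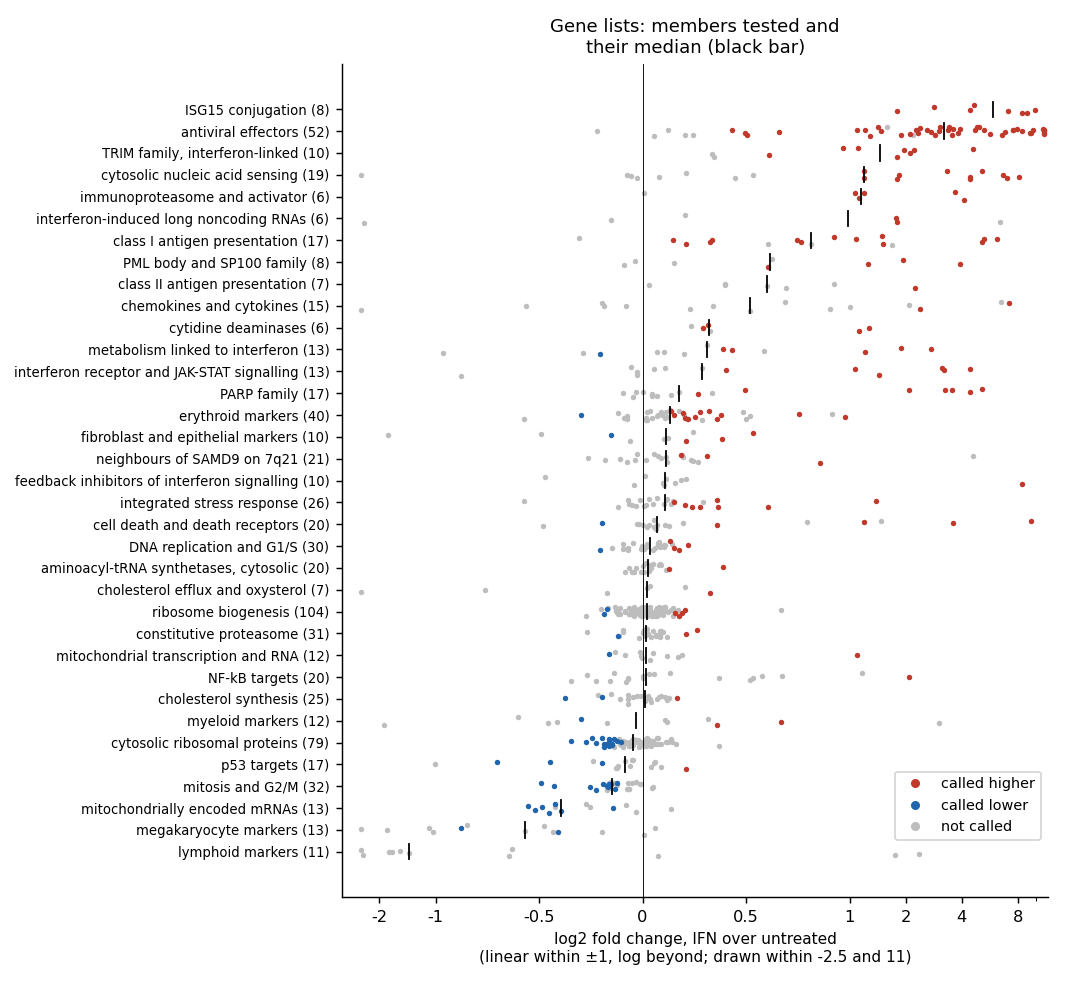
Log2 fold change of each tested member of the gene lists (horizontal axis, interferon alpha over untreated, linear within ±1 and log beyond), with the number tested in parentheses and a black bar at the median, all at fitted values. The medians of the antiviral and ISG15 lists lie above 3, those of the housekeeping lists (constitutive proteasome, ribosome biogenesis) at about 0, and the mitochondrially encoded mRNAs below 0.

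A few cell-death and secreted genes rose. Of 20 genes of cell death tested 4 rose in both fits (3.98% of all genes rose in the fit of 18 libraries and 1.94% in that of 4), with a median of 0.07: XAF1 (above), the death ligand TNFSF10 (TRAIL) at 1.67 and 2.21 CPM with interferon and 0.225 and 0.0910 CPM without (3.57 ± 0.49), the necroptosis effector MLKL (1.20 ± 0.19) and the initiator CASP8 (0.36 ± 0.07). The receptor FAS was at 0.548 and 0.334 CPM with interferon and 0.712 and 0.5002 CPM without, and was not called. BAX was called lower (−0.19 ± 0.06, adjusted p = 0.04) in the fit of all libraries and not in the fit of 4. Of 15 chemokines and cytokines 2 rose in both fits, TNFSF13B (BAFF, a B-cell survival factor) at 4.90 and 3.74 CPM with interferon and 1.01 and 0.614 CPM without, and CXCL11, which had no count without interferon and 0.290 and 0.369 CPM with it, at least 5.29-fold higher. CXCL10, its neighbour and a standard interferon marker in other cells, was at 0.258 and 0.158 CPM with interferon and had no count without, and was not called. No interferon gene passed the filter on low counts, and the 5 in the table summed to 0.193 and 0.193 CPM with interferon and to 0 in both untreated libraries. Class II presentation gave 1 call among 7 genes tested, HLA-DOB at 3.35 and 3.36 CPM with interferon and 0.825 and 0.591 CPM without. The class II activator CIITA was at 1.42 and 1.30 CPM with interferon and 1.78 and 0.841 CPM without, not called. Of 6 interferon-linked noncoding RNAs 2 rose in both fits: BISPR (1.78 ± 0.11), next to BST2, and NRIR (1.79 ± 0.28), next to CMPK2. How the counting treated strand is not given in the sources used here, so reads of such neighbours may be shared.

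Enzymes of nucleotide and amino acid metabolism linked to interferon gave 5 rises and 1 fall among 13 genes, the same number in both fits. Besides SAMHD1, the mitochondrial nucleotide kinase CMPK2 was at 160.4 and 168 CPM with interferon and 45.0 and 44.6 CPM without (1.88 ± 0.06). The aminopeptidase LAP3 rose by 1.22 ± 0.04, NAMPT, which makes NAD from nicotinamide, by 0.43 ± 0.04 and the tryptophanyl-tRNA synthetase WARS1 by 0.39 ± 0.04. ODC1, the first enzyme of polyamine synthesis, fell by a small amount in both treated libraries, to 710.4 and 738 CPM with interferon, against 833 and 838 CPM without (−0.21 ± 0.04). The tryptophan-degrading enzyme IDO1, a standard target of interferon gamma, had 1 count in the 4 libraries together.

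A further 202 genes that are in none of the lists were called higher in both fits with at least 1 CPM on average and groups that did not overlap, and 28 of them rose more than 2-fold. Of these 28, 23 were also called higher in parental cells with interferon. Largest after ERVWE2 was OTOF (otoferlin, known as the calcium sensor of hair-cell synapses) at 19.2 and 19.5 CPM with interferon and 0.187 and 0.227 CPM without (6.54 ± 0.25). HSH2D, a signalling adaptor of lymphocytes, was at 3.19 and 4.06 CPM with interferon and 0.0187 and 0.114 CPM without (5.82 ± 0.54), and ANKRD45 at 5.93 and 6.83 CPM with and 0.187 and 0.205 CPM without (5.02 ± 0.41). In each of these genes both untreated libraries were below 0.3 CPM and both treated ones above 3 CPM. LAMP3, a lysosomal protein of dendritic cells, rose by 2.89 ± 0.27, SERPING1, the complement C1 inhibitor, by 2.67 ± 0.46, the transcription factors BATF2 and HES4 by 2.33 ± 0.11 and 2.19 ± 0.09, and the meiotic cohesin REC8 by 2.09 ± 0.19. LY6E, a surface protein that blocks coronavirus entry, was at 402 and 447 CPM with interferon and 104 and 99.6 CPM without (2.06 ± 0.05). The ubiquitin ligase RNF213 rose by 1.69 ± 0.06, the metallothionein MT2A by 1.87 ± 0.13, acetylcholinesterase (ACHE) by 1.95 ± 0.21, GMPR, which turns GMP into IMP, by 1.37 ± 0.05 and the transglutaminase TGM2 by 1.17 ± 0.05.

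Histone genes were looked at after their values had been seen. Of 51 histone genes tested, chosen by symbol and mostly replication-dependent, 12 were called higher and 2 lower (3.98% and 2.42% of all genes). Of the 12, 7 were called in both fits, and the median log2 fold change over the 51 was 0.20. The linker histone H1-2 was at 774 and 723 CPM with interferon and 456 and 451 CPM without (0.72 ± 0.04), H2AC6 at 227 and 214 CPM with and 137 and 136 CPM without (0.70 ± 0.04), and H2BC5 at 47.7 and 45.5 CPM with and 27.4 and 26.5 CPM without (0.78 ± 0.07). In all 3 the groups did not overlap. These genes are near copies of each other, most of their mRNAs lack a poly(A) tail, and the libraries were poly(A)-selected, so their levels are uncertain.

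Among genes called in both fits the falls were fewer and smaller than the rises. In the fit of 18 libraries 13 genes had a log2 fold change under −3, against the 98 above 3, both by fitted values. Without interferon replicate 2 more genes were called lower (1126) than higher (1076). Of the 106 genes called lower in both fits with at least 1 CPM on average and with groups that did not overlap (both treated libraries lay above both untreated ones for 21.6% of all genes tested and below them for 20.2%), 4 outside the lists fell more than 2-fold. GOLGA6L4 fell by the largest amount (−1.59 ± 0.44, 0.676 and 0.474 CPM with interferon and 2.08 and 1.30 CPM without), but it has near-identical copies, as does RNU6-1, a spliceosomal U6 gene (−1.06 ± 0.33). VGF, a secreted neuropeptide precursor, was at 4.80 and 5.94 CPM with interferon and 11.6 and 11.8 CPM without (−1.11 ± 0.21). The next falls were under 2-fold: the benzodiazepine receptor-binding TSPOAP1 (−0.90 ± 0.19), the platelet collagen receptor GP6 (−0.88 ± 0.15), the actin regulator CORO1A (−0.85 ± 0.13), the mitotic regulator PIMREG (−0.84 ± 0.15), LONRF2 (−0.81 ± 0.08), the lipid kinase PIK3C2B (−0.73 ± 0.13), the p53 target ZMAT3 (−0.70 ± 0.09), the ATP-gated channel P2RX1 (−0.68 ± 0.16), the noncoding MIR600HG (−0.68 ± 0.10) and TMEM158 (−0.64 ± 0.13). SLC2A3, the glucose transporter GLUT3, was at 69.9 and 69.8 CPM with interferon and 107 and 109.7 CPM without (−0.64 ± 0.06). Its 2 treated libraries matched each other closely and lay well below both untreated ones.

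Some genes of mitosis were called lower. Of 32 genes tested 11 were called lower and none higher (2.42% and 3.98% of all genes), with a median log2 fold change of −0.15. Of the 11, 3 were called in the fit of the 4 compared libraries. CDC20, the activator of the anaphase-promoting complex, was at 130.2 and 149 CPM with interferon and 194 and 199.8 CPM without (−0.49 ± 0.05). The mitotic kinase PLK1 was at 136 and 160.4 CPM with interferon and 194 and 206 CPM without (−0.43 ± 0.05), and cyclin B1 (CCNB1) at 242 and 224 CPM with and 277 and 278 CPM without (−0.25 ± 0.04). The remaining calls, among them AURKA and the kinesins KIF11 and CENPE, lay between −0.12 and −0.22. Other proliferation genes were not called, such as TOP2A at 524 and 476 CPM with interferon and 520.3 and 526 CPM without and CDK1 at 326 and 294 CPM with and 298 and 300.0 CPM without. Correction of each library for GC content made the count 17 lower, and leaving out interferon replicate 1 or 2 made it 15 or 6, and leaving out untreated replicate 1 or 2 made it 5 or 3. Among 30 genes of DNA replication and the G1/S transition 4 rose and 1 fell, none in the fit of 4, with a median of 0.04, and without interferon replicate 2 it was 5 higher and 5 lower.

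The mitochondrially encoded mRNAs were lower toward the far end of the heavy-strand transcript. Of the 13, 7 were called lower and none higher (2.42% and 3.98% of all genes), 6 of them in both fits, with a median of −0.39. Among the 7 is MT-ND6, the light-strand mRNA, which is left out of the heavy-strand coefficient below. MT-ND6 was at 385 and 305 CPM with interferon and 477 and 508 CPM without (−0.52 ± 0.10). Its log2 fold change lay between those of its genome neighbours MT-ND5 and MT-CYB. The genes near the start of the transcript were not called: MT-ND1 was at 2969 and 2359 CPM with interferon and 2393 and 2454 CPM without (0.14 ± 0.08), and MT-ND2 at 2193 and 1788 CPM with and 2021 and 2047 CPM without (−0.03 ± 0.07). At the far end, MT-CYB was at 1318 and 1077 CPM with interferon and 1759 and 1754 CPM without (−0.55 ± 0.08), and MT-ND5 at 1918 and 1657 CPM with and 2452 and 2548 CPM without (−0.48 ± 0.06). Between them MT-CO1 fell by 0.14 on the log2 scale, MT-CO3 by 0.45 and MT-ND4 by 0.42. Over the 12 heavy-strand mRNAs the Spearman coefficient of gene start with log2 fold change was −0.881, given as a description since these mRNAs are cut from shared precursors and read in the same libraries, and it was −0.573 for the interferon effect in parental cells. Interferon replicate 2 lay below replicate 1 for every one of the 13, the mitochondrial share of all counts was 4.12% and 3.40% in the interferon-treated libraries against 4.11% and 4.17% in the untreated ones, and without interferon replicate 1 or 2 the count called lower was 11 or 5, with 2 called higher without replicate 2. Without untreated replicate 1 or 2 it was 3 or 2 lower. The part of this replicate in the result beyond those counts was not tested. Among 12 nuclear genes for mitochondrial transcription and RNA handling, PNPT1, a mitochondrial exoribonuclease and known interferon target, rose to 276 and 256 CPM with interferon, against 122 and 126 CPM without (1.10 ± 0.04), FASTK fell by 0.16 on the log2 scale in the fit of all libraries, and the mitochondrial RNA polymerase POLRMT was not called.

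**Figure D4:**
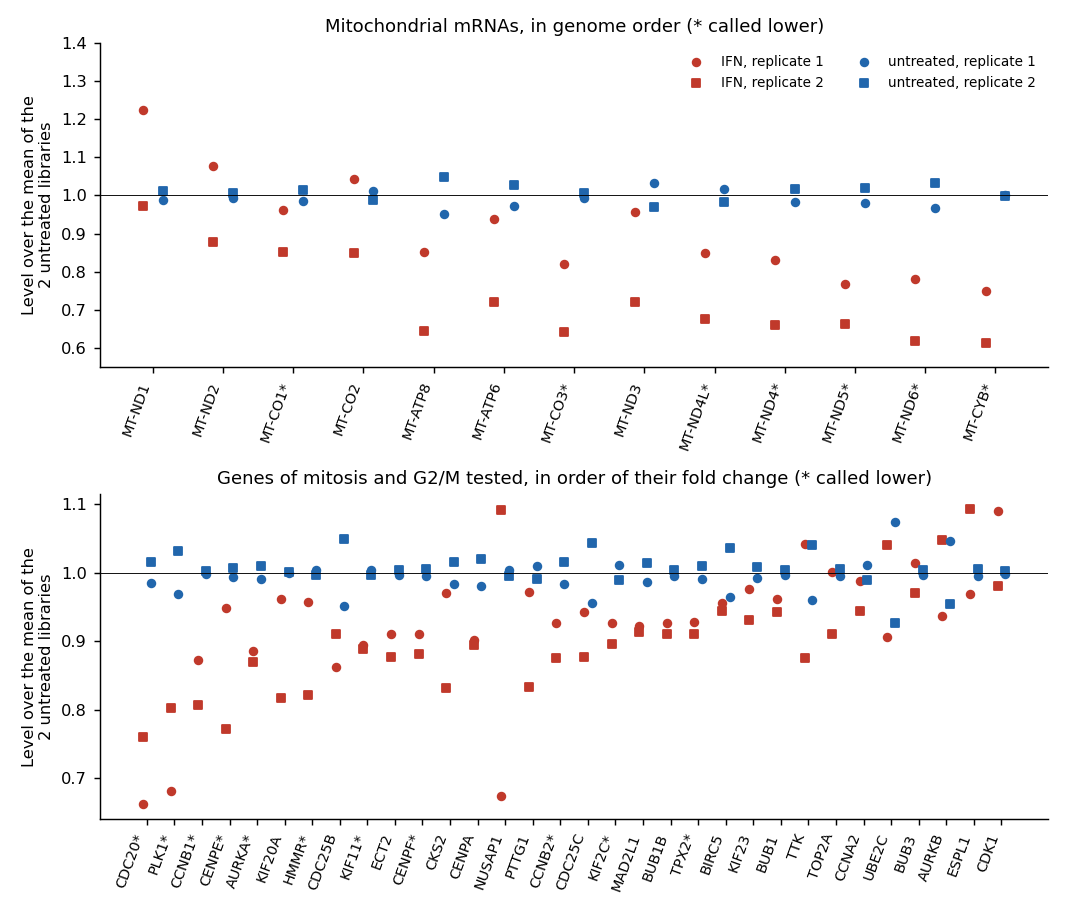
Level of each mitochondrial mRNA in genome order (top) and of each mitosis gene in order of fold change (bottom) in the 4 libraries, divided by the mean of the 2 untreated libraries (vertical axis; red for interferon, blue for untreated, circles for replicate 1, squares for replicate 2, a star for genes called lower). The treated points sink from MT-ND1 to MT-CYB, with replicate 2 lowest throughout and replicate 1 above 1 at MT-ND1, MT-ND2 and MT-CO2. CDC20 and PLK1 lie lowest among the mitosis genes called.

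Few genes of the translation apparatus were called in both fits. Of 79 cytosolic ribosomal protein genes 18 were called lower and none higher in the fit of all libraries (2.42% and 3.98% of all genes). The 18 fell by 0.11 to 0.35 on the log2 scale. The median over the 79 was −0.04, and none was called in the fit of 4. Without interferon replicate 2 the same list gave 22 lower and 17 higher, and without replicate 1 it gave 24 lower and none higher. Leaving out an untreated library gave 9 or 14 lower. Of 104 ribosome biogenesis genes 4 rose and 2 fell (against 3.98% and 2.42% of all genes), none in the fit of 4, with a median of 0.02, and without interferon replicate 2 it was 14 higher and 11 lower. Of 20 cytosolic aminoacyl-tRNA synthetases 2 rose, WARS1 in both fits. Of 26 genes of the integrated stress response, which PKR and related kinases can start, 8 rose and none fell in the fit of all libraries and none was called in the fit of 4, with a median of 0.11. ATF3 was at 6.92 and 6.68 CPM with interferon and 4.39 and 4.55 CPM without (0.60 ± 0.17), and the cystine transporter SLC7A11 at 17.97 and 16.7 CPM with and 13.4 and 13.6 CPM without (0.36 ± 0.09). The central factor ATF4 was at 219 and 220.2 CPM with interferon and 229 and 231 CPM without and was not called. Without interferon replicate 2 this list gave 3 higher and 4 lower, and without untreated replicate 1 or 2 it gave 4 or 1 higher and none lower.

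A minority of erythroid genes rose. Of 40 tested 12 rose and 1 fell (against 3.98% and 2.42% of all genes), 6 of the 12 in both fits, with a median log2 fold change of 0.13. In bulk RNA a change in the number of cells of a type and a change in RNA per cell cannot be told apart. The delta-globin gene HBD was at 57.9 and 53.8 CPM with interferon and 28.3 and 28.2 CPM without (0.98 ± 0.09), and the anion exchanger SLC4A1 at 21.1 and 17.2 CPM with and 10.8 and 11.8 CPM without (0.75 ± 0.15). The blood group gene KEL rose by 0.36 ± 0.04, TFRC, which takes up transferrin, by 0.25 ± 0.03 and the haem enzyme UROS by 0.38 ± 0.07. The other globins named were not called: HBG1 and HBG2, near copies of each other, were at 323 and 272 and at 97.9 and 110.2 CPM with interferon and at 288 and 255 and at 110.1 and 112 CPM without, and HBZ at 676 and 849 CPM with and 617 and 635 CPM without. Both treated values of HBZ lay above the untreated ones (0.29 ± 0.11), and 3 alternatives called it higher. The factor GATA1, given above, was not called, and KLF1 rose by 0.22 ± 0.05 in the fit of all libraries. Leaving out interferon replicate 1 or 2 gave 14 or 11 higher, and leaving out an untreated library gave 8.

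Markers of other lineages gave few calls. Over all genes, 3.98% were called higher and 2.42% lower in the fit of all libraries. Of 13 megakaryocyte genes 2 fell, GP6 in both fits (8.34 and 7.63 CPM with interferon, 14.3 and 14.9 CPM without) and TUBB1, the platelet beta-tubulin, in the fit of all libraries (−0.41 ± 0.11). The median log2 fold change over the 13 was −0.57. In 7 of them both treated libraries lay below both untreated ones, and in none above. Of the listed genes, 7 stayed under 1 CPM in all 4 libraries. The list summed to 236 and 261 CPM with interferon and 260.0 and 265 CPM without. Of 12 myeloid genes CD33 (0.36 ± 0.07) and ITGAM (0.67 ± 0.18) rose and LYZ (−0.30 ± 0.08) fell, none in the fit of 4, and the list summed to 82.3 and 80.1 CPM with interferon and 74.0 and 79.2 CPM without. None of 11 lymphoid genes was called. Their median was −1.38, and 13 listed genes stayed under 1 CPM in all 4 libraries. Of 10 fibroblast and epithelial genes 3 rose and 1 fell, KRT19 (0.38 ± 0.06) and MUC1 (0.53 ± 0.09) in both fits, and the sums were 867 and 896 CPM with interferon and 889 and 907 CPM without. Their part in any result above was not tested. Among pathways that interferon can touch in other cells, 1 of 20 NF-kB targets rose (BIRC3, 2.07 ± 0.65, lost in the fit of 4), 1 of 25 cholesterol synthesis genes rose and 2 fell, none in the fit of 4 (no fall without interferon replicate 1, 3 without replicate 2), 1 of 7 genes of cholesterol efflux and oxysterol response rose (MYLIP, 0.32 ± 0.06), and of 17 p53 targets, in a line that lacks functional p53, 1 rose and 3 fell, ZMAT3 in both fits.

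The same treatment in parental K562 cells, in libraries that share no sample with the KRAB-D9 comparison, called 671 genes higher (3.03%) and 289 lower (1.31%). Of the 188 genes that rose more than 2-fold in KRAB-D9 132 were called higher in parental cells, none of the 882 genes called higher in KRAB-D9 was called lower there, and 2 of the 535 genes called lower in KRAB-D9 were called higher there. The interferon effect in KRAB-D9 minus that in parental cells passed the test in 67 genes (0.303%), of which 32 had the larger value in KRAB-D9 and 35 the smaller, and 24 of the 67 are among the 188. SAMD9 was at 55.01 and 53.5 CPM in treated and 0.750 and 0.364 CPM in untreated KRAB-D9 cells, and at 168 and 154 CPM in treated and 9.31 and 9.05 CPM in untreated parental cells. The log2 fold change was thus larger by 2.42 ± 0.19 in KRAB-D9 (adjusted p = 3.2e-09), while the level reached with interferon was lower in both KRAB-D9 libraries than in either parental one. SAMD9L was at 23.5 and 22.5 CPM in treated and 1.60 and 1.07 CPM in untreated parental cells, where its level with interferon lay below that of KRAB-D9, and its difference was 2.36 ± 0.32. TAP1, at 47.0 and 43.3 CPM in treated and 4.70 and 4.28 CPM in untreated parental cells, differed by 1.96 ± 0.23.

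Other genes with a larger fold change in KRAB-D9 were IFIH1 (1.43 ± 0.27), DDX60L (1.23 ± 0.23), SP110 (1.01 ± 0.14), SAMHD1 (0.76 ± 0.08), PARP14 (0.62 ± 0.08) and IFITM3 (0.47 ± 0.07). Smaller in KRAB-D9 were CMPK2, TRIM22, IFI27 and LY6E. CMPK2 was at 113 and 114 CPM in treated and 13.8 and 14.7 CPM in untreated parental cells, so that KRAB-D9 started higher and rose by a smaller fold, with a difference of −1.12 ± 0.08 (adjusted p = 2.3e-11). TRIM22 was at 19.7 and 16.1 CPM in treated and 0.216 and 0.162 CPM in untreated parental cells (−1.95 ± 0.37). SLC2A3 and GP6, which fell in KRAB-D9, gave no call in parental cells: SLC2A3 was at 133 and 147 CPM in treated and 142 and 142 CPM in untreated parental cells (−0.61 ± 0.08), and GP6 at 10.4 and 10.9 CPM in treated and 11.3 and 8.91 CPM in untreated ones (−0.95 ± 0.21). A fit of the compared groups alone called 22 differences, 13 of the 32 and 8 of the 35 among them. The count also moved when 1 library was left out, most of all without interferon replicate 2 of KRAB-D9. The part of any single library in this was not tested. The differences of IFIH1, DDX60L, TRIM22, IFI27 and GP6 lost their call in at least 1 alternative.

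**Figure D5:**
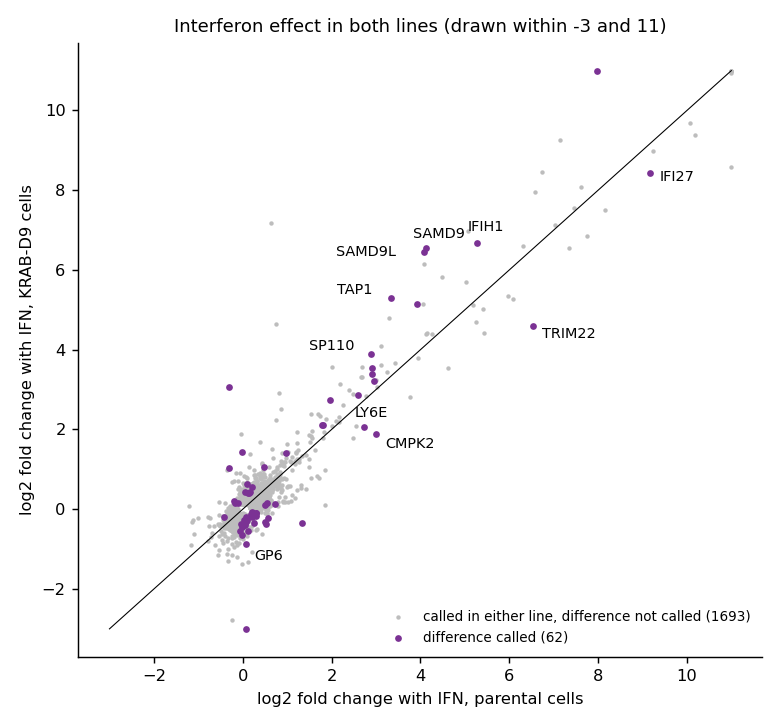
Log2 fold change with interferon alpha in KRAB-D9 cells (vertical axis) against that in parental cells (horizontal axis), for genes called in either line that averaged 1 CPM or more across the 8 libraries; purple marks the genes whose difference was called and the line marks equal effects. SAMD9, SAMD9L, TAP1, SP110 and IFIH1 lie above the line, and CMPK2, TRIM22, LY6E and IFI27 below it.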

How the data were processed

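Stranded, poly(A)-selected mRNA libraries were made from total RNA, per the labels' protocols. The deposited table holds whole-number read counts per gene for all 18 libraries; build GRCh38.p13, featureCounts 2.0.2, STAR 2.7.8a, cutadapt 2.10 and FastQC 0.11.9 are listed, without settings, in the submitters' processing notes. Raw counts were fitted with edgeR 4.0.16 (R 4.3.3) as 9 group means over 18 libraries with robust quasi-likelihood, TMM scaling and filterByExpr, and p-values were adjusted by Benjamini-Hochberg over all 22143 genes tested. Errors beside log2 fold changes are approximate standard errors, derived from each log2 fold change and its F statistic. They can be too small for genes with few untreated counts. A fit of the 4 compared libraries stands beside it. DESeq2 1.42.0 size factors and Wald test, limma 3.58.1 voom, other filters, left-out replicates, a replicate block and GC-corrected offsets were alternatives. Bounds use 3 counts per library as the floor, and 95% counting intervals cover counting error only. The model code was tested on simulated data.

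Named genes are SAMD9 and SAMD9L, the 15 largest rises and 15 largest falls called in both fits (at least 1 CPM on average, groups apart), the 10 silent genes that reached the highest mean, up to 6 members per list by adjusted p, and members that complete a pathway; a few are not reported here. The members, the lists and this rule were chosen with earlier results of these data known. Replicate numbers were not treated as pairs in the main fit. Deviations of same-numbered treated and untreated libraries correlated at 0.0889 over 10446 genes, where the 36 pairs of groups ranged from −0.12 to 0.196. This value cannot show whether same-numbered libraries were handled together.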

Additional observations from a re-analysis of the deposited data

Results flagged for a closer look

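For 25 named genes with untreated counts the log2 fold change with interferon alpha was not the same in the 2 lines, by edgeR's quasi-likelihood test of the difference of the 2 log2 fold changes adjusted over all genes. The differences are given as KRAB-D9 minus parental, on the log2 scale. IFIT1, which had no untreated count in KRAB-D9, also passed this test, and no size is given for it because the fitted value is not a bound.

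Genes of the interferon response with a larger log2 fold change in KRAB-D9 were SAMD9 (difference 2.42), its neighbour SAMD9L (2.36), the peptide pump subunit TAP1 (1.96), the RNA sensor IFIH1 (1.43), the helicase DDX60L (1.23), the SP100 relative SP110 (1.01), SAMHD1 (0.76), PARP14 (0.62), IFITM3 (0.47), the trypanolytic factor APOL1 (0.44), TRIM14 (0.33), IFITM1 (0.30) and the kinase EIF2AK2 (0.29). A further 2 genes from outside the response lists did the same: DHRS2, a short-chain dehydrogenase (0.57), and TXNIP, the thioredoxin-binding protein (0.28). Among these, SAMD9 rose by a log2 fold change of 6.55 in KRAB-D9 and 4.13 in parental cells, and TAP1 by 5.29 and 3.33. A larger fold change did not always come with a higher level. With interferon, SAMD9 averaged 54.2 CPM in KRAB-D9 and 161 CPM in parental cells, and SAMD9L 34.5 and 23.0 CPM.

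Genes of the response with a smaller log2 fold change in KRAB-D9 were TRIM22 (−1.95, with log2 fold changes of 4.58 in KRAB-D9 and 6.54 in parental cells), CMPK2 (−1.12, with 1.88 and 3.0), IFI27 (−0.75) and LY6E (−0.67). With interferon, TRIM22 averaged 24.8 CPM in KRAB-D9 and 17.9 CPM in parental cells, LY6E 425 and 315 CPM, and IFI27 507 and 508 CPM. HMGCS1, an early enzyme of cholesterol synthesis, also gave a negative difference (−0.38).

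Genes with a fold change below 0 in KRAB-D9 were GP6 (−0.95), SLC2A3 (−0.61), the transcriptional corepressor NAB2 (−0.49) and the actin-binding filamin FLNA (−0.36), each nearer 0 in parental cells at 0.07, −0.02, −0.06 and 0.10. ODC1 was lower with interferon in both lines, by −0.21 in KRAB-D9 and −0.42 in parental cells (difference 0.21). The cause of these differences was not tested.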

How the results depend on the processing

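Of the named fold changes and differences, 1 changed sign in an alternative that called it, MT-ND2, at 0.11 without interferon replicate 2 and −0.18 without interferon replicate 1. The 882 genes called higher became 351 with the compared groups alone, and between 542 (without untreated replicate 1) and 1076 (without interferon replicate 2) when 1 library was left out. The 535 genes called lower became 319 with voom, 114 with the compared groups alone and 299 with the 8 KRAB-D9 libraries, and between 254 (without untreated replicate 2) and 1126 (without interferon replicate 2) with 1 library left out. The 213 list members called became 136 with the compared groups alone. The 67 differences from parental cells became 126 with DESeq2, 101 with GC-corrected offsets (chosen after seeing the data), 133 without the filter on low counts and 22 with the compared groups alone, and between 20 (without parental interferon replicate 2) and 992 (without KRAB-D9 interferon replicate 2) with 1 library left out. The fit of the compared groups has 2 residual degrees of freedom in place of 9; otherwise the cause was not tested. With the replicate number as a block 862 genes were higher, 534 lower and 66 differences were called. Of the 154 genes named with a call 130 kept it under every alternative run and 24 lost it under at least 1, among them GOLGA6L4, HERC5, RNU6-1, GBP4, BIRC3, KLF1, MT-CO1, MT-CO3 and MT-ND4; 8 of 40 named without a call gained one; of 25 named differences 12 were kept and 13 lost (APOL1, DDX60L, DHRS2, EIF2AK2, FLNA, GP6, IFI27, IFIH1, NAB2, ODC1, TRIM14, TRIM22 and TXNIP). Leaving out an untreated library moved the log2 fold change of genes with few untreated counts: it ran from 7.88 to 9.74 for USP18, 2.78 to 4.84 for IFIT2, 4.61 to 5.83 for HLA-C and 3.11 to 4.40 for TNFSF10, and the sizes given for DDX60, HLA-B, IFIT5, HSH2D, BIRC3 and XAF1 likewise rest on few untreated counts. With 2 libraries a group small changes are hard to call, and genes under about 0.1 CPM lie at the floor of 3 counts.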
